A study of Mus musculus with 48 samples.

Results

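A set of 10 of the 25528 genes counted was nearly on in one genotype and nearly off in the other when transformed clones of Cas9-Hoxb8 cells were compared. They are Sox4, Unc5a, Nat8l, Rgl3, Pdlim4 and Cyp4v3, which were high in E6l2-Trp53-KO clones, and Prnp, Cited4, Smpx and Fgd1, which were high in Trp53-KO clones. They were chosen by name for that difference, so their levels in the clones are a description and were not tested. Each gene was then traced back to the untransformed cells of every genotype and treatment, which had no part in the choice. RNA was sequenced from 48 libraries of Cas9-Hoxb8 cells, a mouse haematopoietic line labelled GMP (granulocyte and monocyte progenitor) that is kept growing by Hoxb8 and carries Cas9 for gene editing. The 4 genotypes were E6l2-Trp53-KO, Trp53-KO, E6l2-KO and wildtype, where E6l2 stands for Ercc6l2. Each genotype was grown for 48 h with etoposide, at high cell density, or in DMSO, the solvent control. Wells were seeded with 0.25 M cells (M for mega), or with 4 M for the high density groups. The labels do not state how much etoposide was used. The transformed cells are labelled as etoposide transformed and came from E6l2-Trp53-KO clones 7 and 12 and Trp53-KO clones 4 and 6. Their RNA was taken with no drug given beforehand. Each of the 16 groups had 3 libraries, but the labels do not say whether those of one clone are separate cultures. No separately edited lines are named, so a genotype and its edited line cannot be told apart, and p-values measure the spread between these libraries only. There are 2 clones per transformed genotype and none of the other genotypes.

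Etoposide traps topoisomerase II on cut DNA and so breaks it. Trp53 encodes p53, the transcription factor that halts or kills cells with damaged DNA, and Ercc6l2 encodes a helicase-like protein of DNA end joining. A clone is the progeny of a single cell. The 10 genes are not one pathway. They are a transcription factor (Sox4), a transcriptional co-activator (Cited4), 2 surface proteins (Unc5a, Prnp), 2 enzymes (Nat8l, Cyp4v3), 2 exchange factors that switch on small GTPases (Rgl3, Fgd1) and 2 proteins of the contractile or actin apparatus (Pdlim4, Smpx).

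The median library held 27.4 M counts, the smallest 22.5 M and the largest 114 M, and 2 transformed libraries held over 60 M (Trp53-KO clone 4 replicate 3 and E6l2-Trp53-KO clone 12 replicate 3). Levels are CPM, a gene's count divided by its library's TMM-scaled total in M, and they are not divided by gene length, so they are compared between groups and not between genes. In this text a gene is on at a group mean of at least 5 CPM, off under 1 CPM and low between. The defining progenitor markers went against the GMP label in the clones. A list of 8 myeloid progenitor genes summed to 4881.1 to 5185.5 CPM in E6l2-Trp53-KO clones and 5367.0 to 5631.1 CPM in Trp53-KO clones, against 6143.2 to 10295.9 CPM in the 36 untransformed libraries, but its members moved in opposite ways. Mpo, a granule gene, averaged 36.9 and 10.2 CPM in these clones against 2361.6 CPM in untransformed cells, Cebpa 5.04 and 1.30 against 219 CPM, and Ms4a3 4.03 and 2.56 against 450.5 CPM, whereas Kit, which mast cells also express, averaged 2536.7 and 2586.4 against 353 CPM. A list of 8 mast cell genes summed to 120929.9 to 143006.5 CPM in E6l2-Trp53-KO clones and 117513.6 to 136713.0 CPM in Trp53-KO clones, against 1278.1 to 2864.5 CPM in untransformed cells, with Cma1, Cpa3 and Tpsb2 making up most of it. Members of that list differed between the clone genotypes in both directions. Fcer1a averaged 123 CPM in E6l2-Trp53-KO clones and 2259.0 CPM in Trp53-KO clones, Tpsab1 276 and 1264.1 CPM, and Hdc 409 and 1439.6 CPM in the same order. Cma1 was higher in E6l2-Trp53-KO clones, with 65260.0 against 42552.9 CPM, and so was Gata2, with 751.4 against 634 CPM. The part of these marker differences in the values below was not tested. In bulk RNA, fewer cells with a gene on and less of its RNA in every cell cannot be told apart. The edited genes were read first: Trp53 mRNA averaged 37.4 and 37.6 CPM in E6l2-Trp53-KO clones 7 and 12 and 13.2 and 11.8 CPM in Trp53-KO clones 4 and 6, and in DMSO 25.3 CPM in E6l2-Trp53-KO, 28.3 CPM in Trp53-KO, 81.6 CPM in E6l2-KO and 76.0 CPM in wildtype cells. Ercc6l2 mRNA lay between 26.2 and 43.7 CPM in every group, so its level does not check the labels.

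There were 3 patterns of origin once each gene was followed back to untransformed cells, and the plot of all libraries shows them. Sox4, Unc5a and Fgd1 were on or low in all untransformed groups and were lost in one clone genotype. Prnp, Cited4 and Smpx were off in all untransformed groups and appeared in Trp53-KO clones. Nat8l, Rgl3, Pdlim4 and Cyp4v3 were off or low in all untransformed groups and were on in E6l2-Trp53-KO clones. Of the 120 gene-by-group means in untransformed cells 24 were on, 22 low and 74 off, whereas of the 40 means in single clones 19 were on, 2 low and 19 off.

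**Figure D1:**
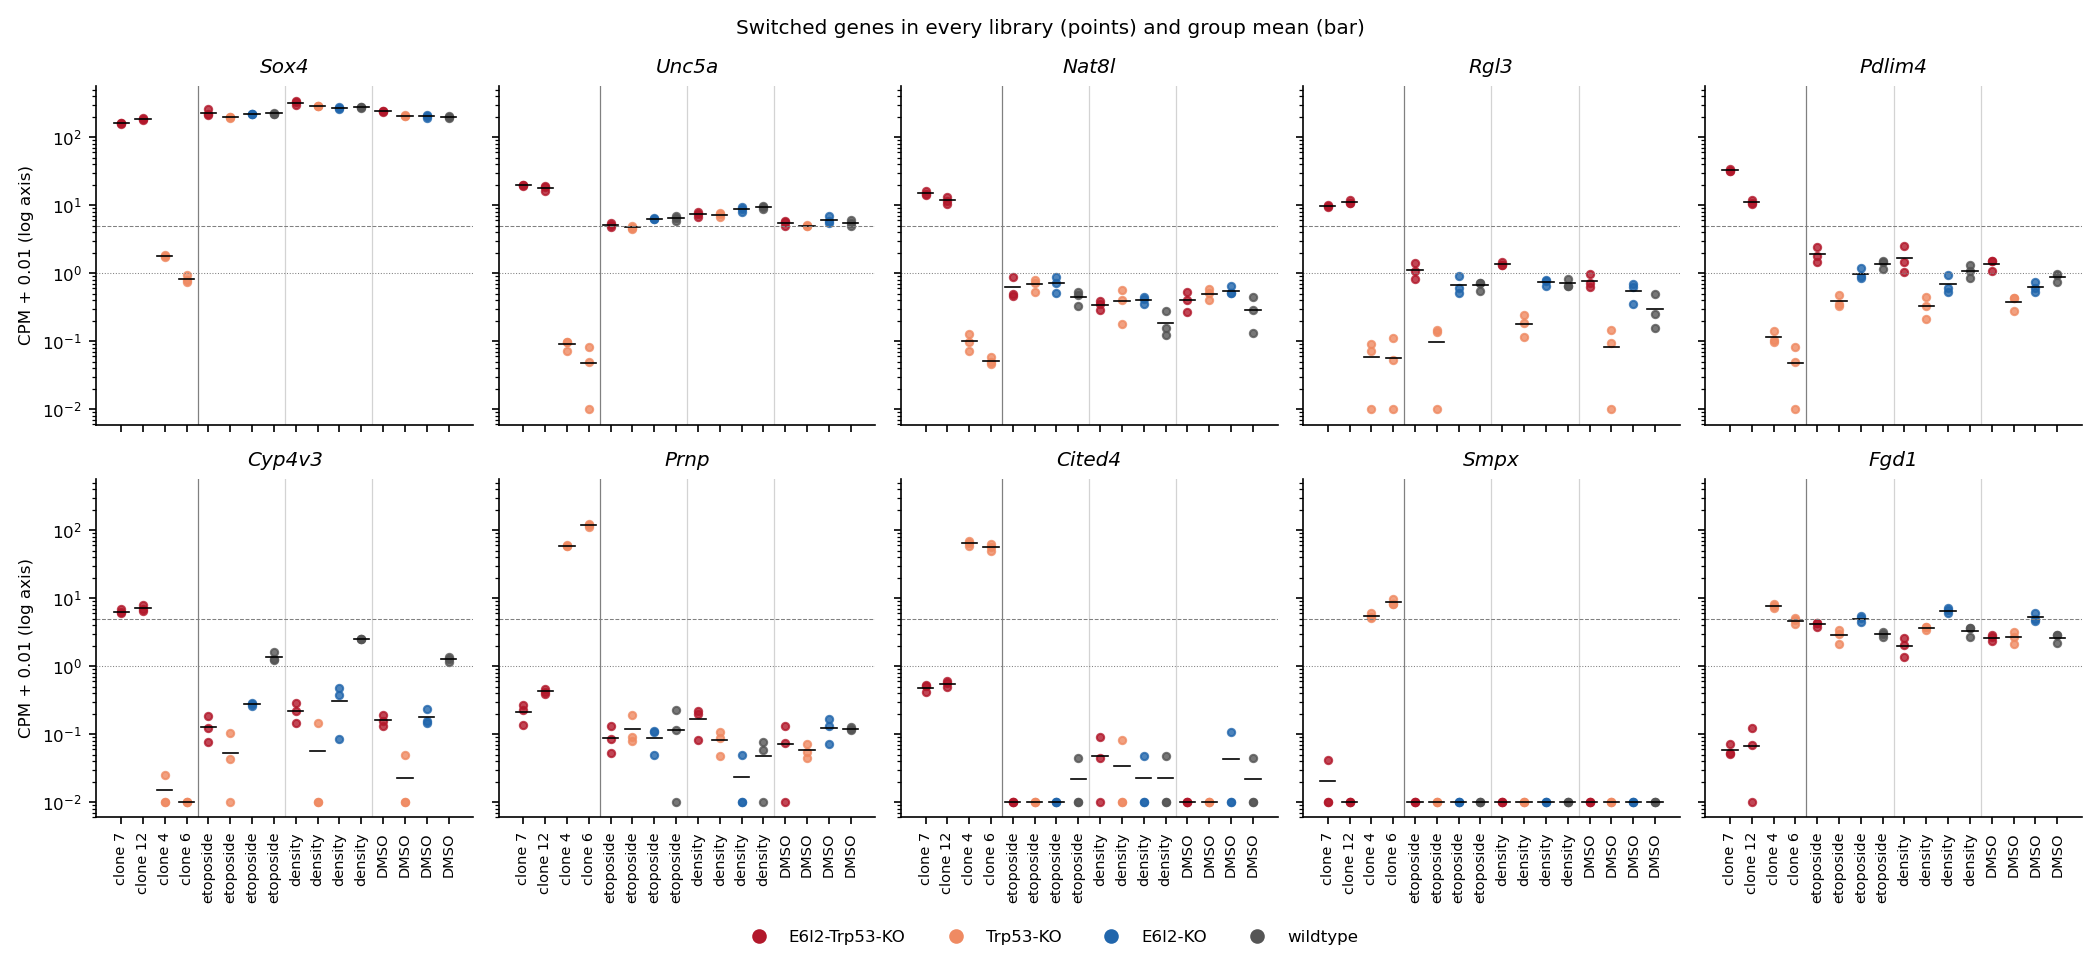
CPM plus 0.01 on a log axis for the 10 genes in each library (points), with the group mean (bar), for the 4 clones and then for etoposide, high cell density (density) and DMSO; in each block E6l2-Trp53-KO stands left, wildtype right. The dashed and dotted lines mark 5 and 1 CPM. Clones of one genotype lie together and far from the other genotype, and Smpx is at 0 in all 36 untransformed libraries.

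The 10 genes are part of a larger group. Over all genes, 37 had all 6 libraries of one clone genotype under 1 CPM and all 6 of the other at 5 CPM or more, 21 of them on in E6l2-Trp53-KO clones and 16 on in Trp53-KO clones. Of the 10 genes 8 passed both bounds. Sox4 did not, because the 3 libraries of Trp53-KO clone 4 had 1.74 to 1.82 CPM, and Fgd1 did not, because 2 of the 3 libraries of Trp53-KO clone 6 had 4.16 and 4.79 CPM. In order of the log2 difference between clone genotypes, taken on log2(CPM + 0.5), Sox4 stood second from the top (6.65) and Prnp second from the bottom (-6.72). Cyp4v3 (3.85) ranked 23 from the top and Fgd1 (-3.55) 25 from the bottom, which are the weakest of the 10. The origins of the 37 were mixed. Of the 21 genes on in E6l2-Trp53-KO clones 6 were on, 7 low and 8 off in DMSO cells of that genotype. Of the 16 genes on in Trp53-KO clones 1 was on, 3 were low and 12 were off in DMSO cells of that genotype.

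The genes that Trp53-KO clones had lost are given first. Sox4 (ENSMUSG00000076431, chromosome 13) encodes a SoxC transcription factor with an HMG box, known for its part in B cell development and in leukaemia. It had 155, 164 and 165 CPM in the 3 libraries of E6l2-Trp53-KO clone 7 and 183, 186 and 192 CPM in those of clone 12, against 1.82, 1.79 and 1.74 CPM in Trp53-KO clone 4 and 0.920, 0.741 and 0.776 CPM in clone 6. The lowest E6l2-Trp53-KO library was far above the highest Trp53-KO library, and the ratio of the means was 134. In untransformed cells Sox4 was high everywhere, from 194 to 339 CPM with a median of 224 CPM over 36 libraries. Relative to DMSO cells of their own genotype, Sox4 was at 0.718 of the level in E6l2-Trp53-KO clones, and at 0.00854 in Trp53-KO clone 4 and 0.00389 in clone 6. Most Sox4 counts were not whole numbers (20.8% were within 0.01 of one), so the counting estimated them, and an annotated gene, Gm26735, overlaps Sox4 on the other strand.

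Unc5a (ENSMUSG00000025876, chromosome 13) encodes a receptor for netrins that carries a death domain and is one of the dependence receptors, which are known to signal cell death when their ligand is missing. Its level was 19.28, 19.96 and 19.97 CPM in E6l2-Trp53-KO clone 7 and 19.32, 15.97 and 18.89 CPM in clone 12, against 0.0629, 0.0881 and 0.0883 CPM in Trp53-KO clone 4 and 0.0720, 0 and 0.0392 CPM in clone 6. Trp53-KO clones held 13 counts of Unc5a in 6 libraries, and the ratio of the means was 324. Untransformed libraries had 4.52 to 9.63 CPM with a median of 6.12 CPM, so E6l2-Trp53-KO clones stood above all of them and Trp53-KO clones below all of them. Unc5a lies over Hk3, a hexokinase gene on the opposite strand, and the sources used here do not say whether reads were counted by strand. Hk3 averaged 31.9 CPM in E6l2-Trp53-KO clones and 18.1 CPM in Trp53-KO clones, against 322.5 to 480 CPM in the untransformed groups. Its level in Trp53-KO DMSO cells was 459.7 CPM, so Hk3, like Unc5a, was lower in Trp53-KO clones than in their DMSO cells. In E6l2-Trp53-KO clones the 2 genes parted: Hk3 was below its level in DMSO cells of that genotype (347.9 CPM), and Unc5a was above its own (5.48 CPM). Whether part of the untransformed Unc5a count comes from Hk3 reads was not tested.

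The RefSeq promoters of Sox4 and Unc5a, both on chromosome 13, are shown because both genes were nearly silent in the same 2 clones while their CG content is unlike. The windows run from 250 bases before to 50 bases after the start, on GRCm38.p6, at chr13:28953650-28953949 on the minus strand for Sox4 and chr13:54949161-54949460 on the plus strand for Unc5a. Capitals mark CG pairs, the sites at which mammalian DNA can be methylated. No methylation was measured here.
Sox4: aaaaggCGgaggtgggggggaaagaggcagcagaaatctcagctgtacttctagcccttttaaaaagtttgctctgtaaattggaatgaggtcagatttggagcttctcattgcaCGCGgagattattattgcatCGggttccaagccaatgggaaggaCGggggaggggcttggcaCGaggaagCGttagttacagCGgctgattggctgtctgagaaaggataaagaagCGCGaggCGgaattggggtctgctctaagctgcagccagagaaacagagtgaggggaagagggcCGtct
Unc5a: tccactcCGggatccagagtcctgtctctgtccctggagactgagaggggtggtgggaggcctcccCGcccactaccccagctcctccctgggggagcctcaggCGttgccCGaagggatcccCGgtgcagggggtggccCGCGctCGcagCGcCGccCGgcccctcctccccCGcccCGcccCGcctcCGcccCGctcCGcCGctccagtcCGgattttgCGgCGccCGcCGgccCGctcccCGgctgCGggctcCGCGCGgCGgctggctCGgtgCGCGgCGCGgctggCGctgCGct
The Sox4 window holds 12 CG pairs and the Unc5a window 37, against a median of 7 over 32841 promoters. The share of all promoters with at least as many was 39.6% for Sox4 and 5.58% for Unc5a.

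Fgd1 (ENSMUSG00000025265, chromosome X), an exchange factor for the small GTPase Cdc42 that is mutated in human faciogenital dysplasia, was the gene lost on the other side. It had 0.0405, 0.0425 and 0.0618 CPM in E6l2-Trp53-KO clone 7 and 0, 0.112 and 0.0586 CPM in clone 12, against 8.08, 7.05 and 7.70 CPM in Trp53-KO clone 4 and 4.79, 5.06 and 4.16 CPM in clone 6. No library of one genotype overlapped the other, and Trp53-KO clones were 117-fold higher. The untransformed range was 1.36 to 7.12 CPM with a median of 3.27 CPM. Fgd1 overlaps Tsr2 on the opposite strand, whose level was 23.1 CPM in E6l2-Trp53-KO clones and 18.4 CPM in Trp53-KO clones, so Tsr2 did not share the loss. The Fgd1 promoter window has 33 CG pairs.

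The genes that appeared in Trp53-KO clones came from silence. Prnp (ENSMUSG00000079037, chromosome 2) encodes the prion protein, a surface protein held by a lipid anchor and known from brain. Its level was 0.260, 0.127 and 0.219 CPM in E6l2-Trp53-KO clone 7 and 0.382, 0.453 and 0.412 CPM in clone 12, against 59.4, 60.4 and 58.9 CPM in Trp53-KO clone 4 and 122, 113 and 120 CPM in clone 6. Trp53-KO clones were 288-fold above E6l2-Trp53-KO clones and 1881-fold above DMSO cells of their own genotype, where 3.75 counts were seen in 3 libraries. The highest of the 36 untransformed libraries had 0.215 CPM. Clone 6 had 1.99 times the Prnp level of clone 4. Only 14.6% of Prnp values were whole, and Prn, a gene annotated over it, held 4.31 counts in clone 4 and none in the other groups.

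Cited4 (ENSMUSG00000070803, chromosome 4) encodes a co-activator that binds the acetyltransferases Crebbp and Ep300 and the AP-2 transcription factors. It had 0.405, 0.510 and 0.495 CPM in E6l2-Trp53-KO clone 7 and 0.552, 0.598 and 0.478 CPM in clone 12, against 69.7, 59.4 and 64.7 CPM in Trp53-KO clone 4 and 56.4, 62.4 and 50.04 CPM in clone 6. The ratio was 119 in favour of Trp53-KO clones. DMSO libraries of both genotypes had no Cited4 count, so the Trp53-KO clones were at least 1653-fold higher than their own DMSO cells and the E6l2-Trp53-KO clones at least 15.8-fold higher, against a floor of 3 counts over the 3 DMSO libraries. Cited4 was thus above its untransformed level in both clone genotypes, and 28 of the 36 untransformed libraries had none.

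Smpx (ENSMUSG00000041476, chromosome X) encodes a small protein of striated muscle. E6l2-Trp53-KO clones held 1 count in 6 libraries, in clone 7, whereas Trp53-KO clone 4 had 6.07, 5.29 and 5.05 CPM and clone 6 had 9.80, 8.31 and 8.16 CPM. The ratio of Trp53-KO to E6l2-Trp53-KO clones, from summed counts, was 1561 with an exact 95% counting interval of 280 to 61699. All 36 untransformed libraries had 0 counts, so Trp53-KO clones were at least 180-fold above their own DMSO cells. A list of 8 other striated muscle genes summed to 2.54 to 4.27 CPM in E6l2-Trp53-KO clones and 12.75 to 17.7 CPM in Trp53-KO clones, against 2.07 to 7.22 CPM in untransformed cells, and 6 of the 8 averaged under 1 CPM in Trp53-KO clones. The other 2 moved with Smpx: Ttn averaged 0.802 CPM in E6l2-Trp53-KO clones, 7.02 CPM in Trp53-KO clones and 0.051 CPM in untransformed cells, and Mylpf 2.32 CPM in E6l2-Trp53-KO clones, 7.66 CPM in Trp53-KO clones and 2.08 CPM in untransformed cells. The part of muscle genes in the Smpx level was not tested. Markers of neurons, where Prnp is also known, summed to at most 0.378 CPM in Trp53-KO clones.

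The promoters of these 3 genes are shown because the genes moved together from the same silent state. The GRCm38.p6 windows are chr2:131909678-131909977 for Prnp, chr4:120666313-120666612 for Cited4 and chrX:157698723-157699022 for Smpx, all on the plus strand, with CG pairs in capitals.
Prnp: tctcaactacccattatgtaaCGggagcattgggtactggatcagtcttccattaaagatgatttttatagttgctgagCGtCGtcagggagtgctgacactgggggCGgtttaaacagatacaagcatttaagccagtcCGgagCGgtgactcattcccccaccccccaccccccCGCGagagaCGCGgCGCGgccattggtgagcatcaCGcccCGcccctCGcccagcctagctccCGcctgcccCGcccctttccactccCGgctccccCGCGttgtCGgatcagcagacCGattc
Cited4: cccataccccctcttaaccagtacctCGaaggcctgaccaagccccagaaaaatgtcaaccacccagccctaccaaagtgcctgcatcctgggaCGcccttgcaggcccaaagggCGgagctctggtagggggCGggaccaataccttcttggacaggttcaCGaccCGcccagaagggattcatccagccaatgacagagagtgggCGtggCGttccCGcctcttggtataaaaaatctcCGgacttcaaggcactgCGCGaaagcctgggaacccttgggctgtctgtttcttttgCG
Smpx: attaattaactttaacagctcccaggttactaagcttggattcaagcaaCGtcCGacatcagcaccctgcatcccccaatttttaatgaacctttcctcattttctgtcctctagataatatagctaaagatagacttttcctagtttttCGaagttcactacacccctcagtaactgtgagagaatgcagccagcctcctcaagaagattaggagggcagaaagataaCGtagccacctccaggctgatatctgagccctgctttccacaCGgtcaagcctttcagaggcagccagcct
They hold 22, 13 and 5 CG pairs for Prnp, Cited4 and Smpx, so a CG-rich window is not shared by the 3. Smpx lay below the median of 7 over all promoters.

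The genes that appeared in E6l2-Trp53-KO clones had traces in untransformed cells. Nat8l (ENSMUSG00000048142, chromosome 5) encodes the enzyme that makes N-acetylaspartate from aspartate and acetyl-CoA, known above all from neurons. Its level was 16.3, 14.4 and 14.5 CPM in E6l2-Trp53-KO clone 7 and 13.4, 10.5 and 11.7 CPM in clone 12, against 0.0629, 0.0881 and 0.118 CPM in Trp53-KO clone 4 and 0.0360, 0.0491 and 0.0392 CPM in clone 6. The ratio was 205. Untransformed libraries had 0.115 to 0.883 CPM, so Nat8l lay above them all in E6l2-Trp53-KO clones, and only the highest Trp53-KO clone library (0.118 CPM) reached into their range.

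Rgl3 (ENSMUSG00000040146, chromosome 9) encodes an exchange factor that links Ras to the Ral GTPases. It had 10.2, 9.66 and 9.48 CPM in E6l2-Trp53-KO clone 7 and 10.9, 10.7 and 11.8 CPM in clone 12, against 0.0821, 0 and 0.0610 CPM in Trp53-KO clone 4 and 0.0999, 0.0423 and 0 CPM in clone 6. The clone genotypes did not overlap and the ratio of the means was 220. E6l2-Trp53-KO clones were 13.7-fold above DMSO cells of their genotype, while Trp53-KO clones and their DMSO cells were both near 0 (10.6 counts in 6 libraries and 6.17 in 3). Only 18.8% of Rgl3 values were whole, so they too are estimates.

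Pdlim4 (ENSMUSG00000020388, chromosome 11) encodes a protein with a PDZ and a LIM domain that binds alpha-actinin on actin fibres. Its level was 32.0, 32.3 and 34.2 CPM in E6l2-Trp53-KO clone 7 and 12.0, 10.6 and 10.9 CPM in clone 12, against 0.0943, 0.132 and 0.0883 CPM in Trp53-KO clone 4 and 0.0720, 0 and 0.0392 CPM in clone 6. Clone 7 was far above clone 12, and both were above every untransformed library (0.202 to 2.48 CPM). The ratio between genotypes was 310.

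Cyp4v3 (ENSMUSG00000079057, chromosome 8) encodes a fatty acid hydroxylase of the cytochrome P450 family 4, the mouse counterpart of human CYP4V2. It had 6.08, 6.16 and 6.83 CPM in E6l2-Trp53-KO clone 7 and 6.54, 7.97 and 7.04 CPM in clone 12, against 1 count in the 6 Trp53-KO libraries. From summed counts the ratio was 1375, with an exact 95% counting interval of 246 to 54340. E6l2-Trp53-KO clones were 45.5-fold above DMSO cells of their genotype.

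The promoters of Rgl3 and Pdlim4 are shown because these 2 genes had the same order of genotypes in clones and in untransformed cells. This order was not particular to them, and Sox4, whose promoter is given above, also had it. Their GRCm38.p6 windows, both on the minus strand, are chr9:21989404-21989703 and chr11:54068968-54069267.
Rgl3: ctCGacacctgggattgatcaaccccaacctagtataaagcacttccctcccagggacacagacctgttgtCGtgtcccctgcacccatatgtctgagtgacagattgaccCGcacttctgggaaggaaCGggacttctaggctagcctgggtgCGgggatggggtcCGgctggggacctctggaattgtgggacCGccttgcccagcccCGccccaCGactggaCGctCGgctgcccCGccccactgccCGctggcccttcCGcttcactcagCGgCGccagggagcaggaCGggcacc
Pdlim4: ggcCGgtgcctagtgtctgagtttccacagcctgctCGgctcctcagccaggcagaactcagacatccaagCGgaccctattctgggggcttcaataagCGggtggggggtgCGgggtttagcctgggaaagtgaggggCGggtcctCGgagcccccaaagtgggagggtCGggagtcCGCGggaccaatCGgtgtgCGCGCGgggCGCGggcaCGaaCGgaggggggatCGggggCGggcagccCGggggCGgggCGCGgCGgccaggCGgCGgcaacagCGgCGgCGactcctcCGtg
The windows hold 17 and 31 CG pairs. RefSeq had a promoter for 9 of the 10 genes, all but Nat8l. Both strands were searched for 3 motifs, none of which overlaps another. The GC box, GGGCGG, was in 7 of 9 windows, all but Sox4 and Smpx, against 35.7% of all promoters. The TATA box, spelled TATAAA, was in 3 windows (Prnp, Cited4 and Rgl3), against 13.6% of all promoters. The E-box was searched as CACGTG, which reads the same on both strands, and was in 1 window (Cyp4v3), against 7.15%. A match is a run of letters and not a binding site.

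Whether the genotypes already differed before transformation was tested in the 36 untransformed libraries with edgeR's quasi-likelihood test and Benjamini-Hochberg adjustment over 14059 genes, a gene being called at an adjusted p under 0.05. Of the 10 genes 7 passed the filter on low counts. Prnp, Cited4 and Smpx did not, and Cyp4v3 was above 1 CPM in wildtype cells only. The DMSO groups serve in several of the comparisons below, which are therefore not independent of each other.

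In DMSO, E6l2-Trp53-KO cells were higher than Trp53-KO cells in Sox4, Rgl3, Pdlim4 and Cyp4v3, so 4 of the tested 7 were called, against 14.9% of all genes tested. Rgl3 had 0.611, 0.718 and 0.961 CPM in E6l2-Trp53-KO cells and 0.135, 0 and 0.0840 CPM in Trp53-KO cells, a log2 fold change of 3.29 (SE 0.517, edgeR adjusted p = 1.09e-05). No library overlapped, although both groups were under the 1 CPM used here as off. Pdlim4 had 1.495, 1.504 and 1.08 CPM in E6l2-Trp53-KO cells and 0.420, 0.272 and 0.420 CPM in Trp53-KO cells, a log2 fold change of 1.85 (SE 0.318, edgeR adjusted p = 4.26e-05). These again did not overlap. Sox4 differed by 0.22 on the log2 scale (SE 0.051, edgeR adjusted p = 0.00201), from 239, 249 and 241 CPM in E6l2-Trp53-KO cells and 205, 213 and 210 CPM in Trp53-KO cells. Cyp4v3 rested on 14 counts in E6l2-Trp53-KO cells and 1 count in Trp53-KO cells, a ratio of 11.9 with an exact 95% counting interval of 1.81 to 502 (edgeR adjusted p = 0.0261), and the call was lost in 4 of the 6 fits that left out 1 library, with adjusted p up to 0.135. Unc5a (0.14), Nat8l (-0.34) and Fgd1 (-0.03) were not called, although in the clones they were among the switched genes.

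Under etoposide 4 of the tested 7 were again higher in E6l2-Trp53-KO than in Trp53-KO cells, against 24.1% of all genes tested. Rgl3 had 0.808, 1.07 and 1.39 CPM in E6l2-Trp53-KO cells and 0.129, 0.138 and 0 CPM in Trp53-KO cells (log2 fold change 3.68, SE 0.455, edgeR adjusted p = 1.37e-07). Pdlim4 had 1.80, 1.48 and 2.46 CPM in E6l2-Trp53-KO cells and 0.465, 0.338 and 0.324 CPM in Trp53-KO cells (log2 fold change 2.37, SE 0.294, edgeR adjusted p = 1.44e-07). In both genes every E6l2-Trp53-KO library lay above every Trp53-KO library. Sox4 (0.23, edgeR adjusted p = 0.000843) and Fgd1 (0.57, edgeR adjusted p = 0.012) were also called, but neither with only the groups compared in the fit (edgeR adjusted p = 0.098 and 0.0678). E6l2-Trp53-KO etoposide replicate 3 differed from its 2 partners more than other untransformed replicates did, and without it Fgd1 was not called (0.51, edgeR adjusted p = 0.0714), nor was it without Trp53-KO replicate 2 (0.39, edgeR adjusted p = 0.122).

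At high cell density 3 genes were higher and 1 was lower in E6l2-Trp53-KO than in Trp53-KO cells, against 19.9% of all genes tested called. Rgl3 had 1.31, 1.44 and 1.30 CPM in E6l2-Trp53-KO cells and 0.232, 0.105 and 0.175 CPM in Trp53-KO cells (log2 fold change 2.86, SE 0.407, edgeR adjusted p = 1.39e-06). Pdlim4 had 1.47, 1.04 and 2.48 CPM in E6l2-Trp53-KO cells and 0.320, 0.202 and 0.444 CPM in Trp53-KO cells (log2 fold change 2.33, SE 0.322, edgeR adjusted p = 8.75e-07). Fgd1 was lower, with 2.59, 1.36 and 2.02 CPM in E6l2-Trp53-KO cells and 3.70, 3.43 and 3.73 CPM in Trp53-KO cells (log2 fold change -0.84, SE 0.186, edgeR adjusted p = 0.000962). Sox4 differed by 0.17 (edgeR adjusted p = 0.0137) and lost its call without E6l2-Trp53-KO replicate 2 or 3, with no filter on low counts (edgeR adjusted p = 0.0671) and with only the groups compared (edgeR adjusted p = 0.0646). Sox4, Rgl3 and Pdlim4 were therefore called in the direction of the clones under all 3 conditions, and Fgd1 had the sign of the clones at high density and the opposite sign under etoposide.

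**Figure D2:**
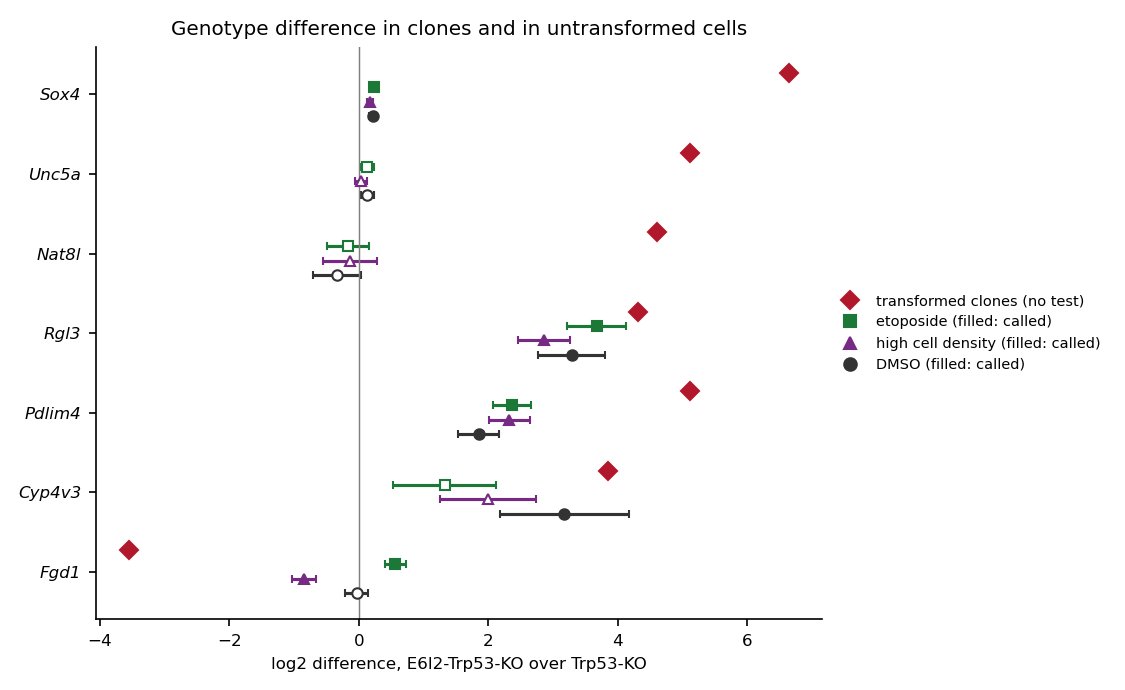
Log2 difference of E6l2-Trp53-KO over Trp53-KO for the 7 genes tested in untransformed cells, with SE for etoposide, high cell density and DMSO (filled where called) and without a test for the clones, where it was taken on log2(CPM + 0.5). Sox4, Rgl3 and Pdlim4 lie on the side of the clones in every condition, Sox4 by at most 0.23, while Unc5a and Nat8l lie near 0 before transformation.

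Set against wildtype in DMSO, Trp53-KO cells were called lower in Pdlim4 and Rgl3, where 9.03% of all genes tested were called. Cyp4v3 passed the filter on low counts only through its wildtype level. Its difference from wildtype is therefore given as a description and not counted as a call. Cyp4v3 had 0, 0.0388 and 0 CPM in Trp53-KO cells and 1.14, 1.25 and 1.36 CPM in wildtype cells, which is 1 count and 113 counts, a ratio of 0.00988 with an exact 95% counting interval of 0.000248 to 0.0562. Pdlim4 (-1.26, SE 0.338, edgeR adjusted p = 0.0139) and Rgl3 (-1.92, SE 0.615, edgeR adjusted p = 0.0443) were lower too. With 1 library left out the Rgl3 call was lost in 4 of 6 fits and the Pdlim4 call in 3 of 6, both without Trp53-KO replicate 2 or wildtype replicate 1, and with DESeq2 Rgl3 was not called (adjusted p = 0.0592). E6l2-KO cells against wildtype gave a call for Fgd1, where 4.05% of all genes tested were called, and Cyp4v3 is again a description. Cyp4v3 had 0.226, 0.134 and 0.146 CPM in E6l2-KO cells, below every wildtype library. Fgd1 had 6.11, 4.90 and 4.56 CPM in E6l2-KO cells and 2.18, 2.82 and 2.88 CPM in wildtype cells (log2 fold change 0.96, SE 0.167, edgeR adjusted p = 0.000177). In wildtype cells at high density Cyp4v3 had 2.46 to 2.50 CPM.

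**Figure D3:**
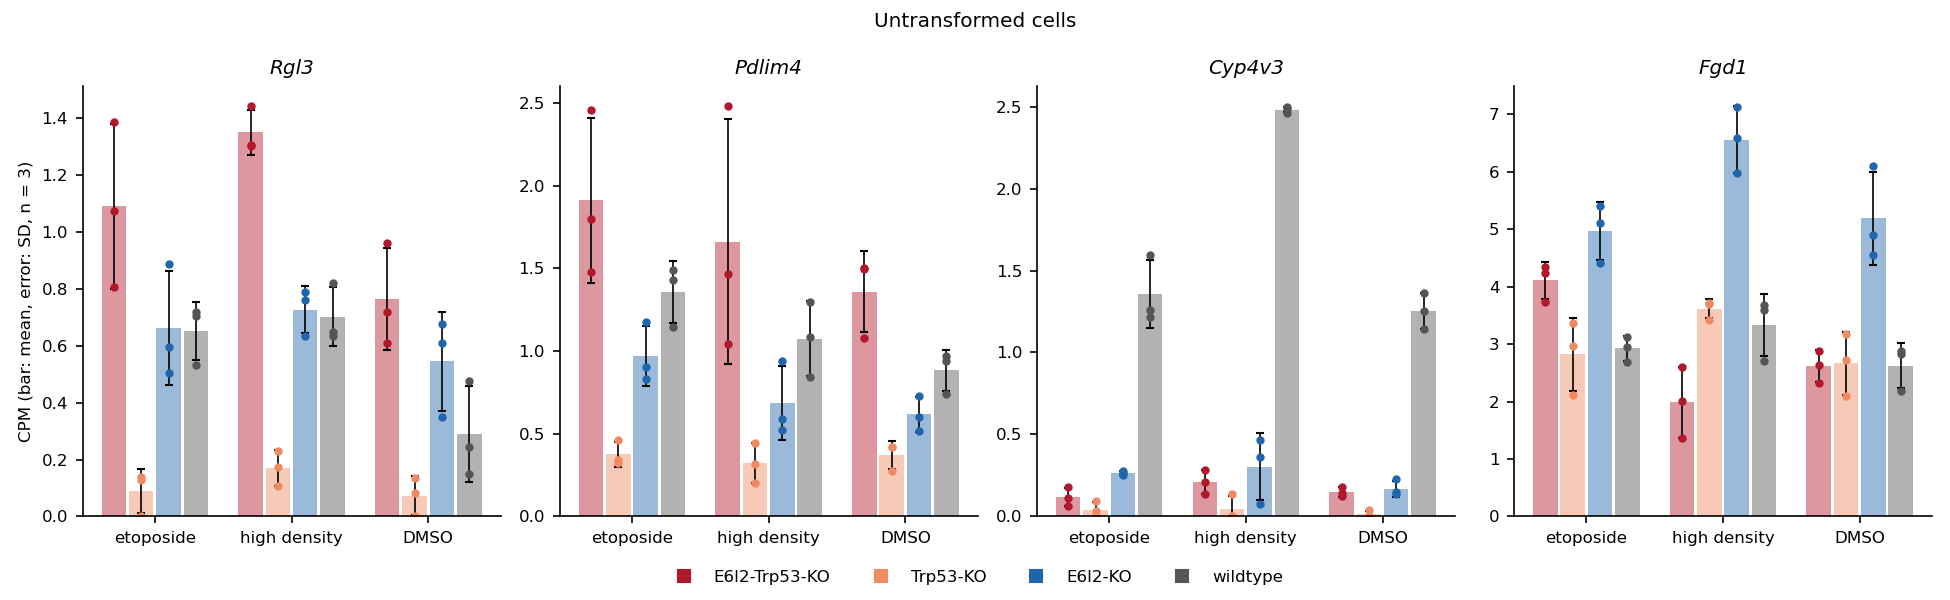
CPM of Rgl3, Pdlim4, Cyp4v3 and Fgd1 in untransformed cells under etoposide, at high cell density and in DMSO, as mean (bar), SD (error bar) and libraries (points), with genotypes from E6l2-Trp53-KO on the left to wildtype on the right. Trp53-KO cells are lowest in Rgl3 and Pdlim4 in every condition, wildtype cells are highest in Cyp4v3, and E6l2-KO cells are highest in Fgd1.

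Etoposide gave few calls among these genes. Etoposide against DMSO gave 1 call of the tested 7 in E6l2-Trp53-KO cells, against 13.2% of all genes tested, a share that itself rests on single libraries (1858 genes in all). The count was 546 when the third etoposide library was left out, 2902 or 2850 when etoposide replicate 1 or 2 was, 1142 when DMSO replicate 2 was, and 118 with only the groups compared. The 1 call was Fgd1, with 3.74, 4.24 and 4.35 CPM under etoposide and 2.63, 2.89 and 2.33 CPM in DMSO (log2 fold change 0.68, SE 0.169, edgeR adjusted p = 0.00826), a call lost without etoposide replicate 3 or DMSO replicate 3. In Trp53-KO cells etoposide gave no call by edgeR among the 7, with 0% of all genes called, 468 of 14059 genes at an unadjusted p under 0.05 and none of the 7 among them. E6l2-KO cells gave none of the 7 either, by edgeR or DESeq2, against 35% of all genes, and again none had an unadjusted p under 0.05. Wildtype cells had 1 of 7, against 41.5% of all genes. It was Rgl3, with 0.703, 0.717 and 0.534 CPM under etoposide and 0.245, 0.149 and 0.478 CPM in DMSO (log2 fold change 1.08, SE 0.408, edgeR adjusted p = 0.033), and without wildtype etoposide replicate 1 or 2, or without DMSO replicate 1 or 2, it was not called.

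At high cell density Sox4 and Unc5a were higher than in DMSO in every genotype. The counts were 3 of 7 in E6l2-Trp53-KO cells (46.2% of all genes called), 3 of 7 in Trp53-KO cells (44.7%), 2 of 7 in E6l2-KO cells (40.7%) and 4 of 7 in wildtype cells (48.5%), so for the set as a whole the share was near that of all genes. Sox4 differed from DMSO by 0.42, 0.47, 0.38 and 0.45 on the log2 scale in E6l2-Trp53-KO, Trp53-KO, E6l2-KO and wildtype cells, with edgeR adjusted p of at most 2.46e-07. Unc5a differed by 0.45, 0.55, 0.52 and 0.75 in the same order, with edgeR adjusted p of at most 0.00023. The other calls were Rgl3 in E6l2-Trp53-KO (0.83) and wildtype cells (1.27), Fgd1 in Trp53-KO cells (0.45) and Cyp4v3 in wildtype cells (0.97). The Rgl3 call in E6l2-Trp53-KO cells and the Fgd1 call in Trp53-KO cells were each lost in 5 of the 6 fits that left out 1 library, and the Rgl3 call in wildtype cells was lost without DMSO replicate 2. Nat8l was called in none of the 15 comparisons of untransformed cells.

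Whether E6l2-Trp53-KO and Trp53-KO cells responded differently was tested as an interaction. For etoposide none of the 7 was called by edgeR or DESeq2, against 0.206% of all genes, and Fgd1 had the lowest unadjusted p (difference 0.60, edgeR adjusted p = 0.301), the 1 gene under an unadjusted 0.05. For high density none of the 7 was called either, against 0.334% of all genes, and Fgd1 was again the 1 gene under an unadjusted 0.05 (difference -0.81, edgeR adjusted p = 0.239). Without E6l2-Trp53-KO high density replicate 1 the Fgd1 difference was -1.06 with an edgeR adjusted p of 0.0399.

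The next question was whether genes related to the switched ones moved with them. For each gene except Smpx a list of family members, ligands or partners was read in the clone comparison, where the 3 libraries of a clone were summed and 2 clones stood against 2. Of 74 listed genes 56 were tested. E6l2-Trp53-KO clones were higher in 11, lower in 14 and not called in 31, so 44.6% were called, against 29.1% of the 15865 genes tested. The lists were chosen with earlier results of these data known, so these shares are a description. The median log2 fold change was -0.15 over the listed genes and -0.01 over all genes. Without E6l2-Trp53-KO clone 12 only 15 were called, and 2299 genes in all.

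In the netrin receptor list 1 of 8 was higher and 3 were lower. Unc5b, a sister receptor of Unc5a described in human cells as a p53 target, followed Unc5a with 3.23 ± 0.346 CPM in E6l2-Trp53-KO clones and 0.0932 ± 0.0549 CPM in Trp53-KO clones (SD over the 6 libraries of 2 clones), a log2 fold change of 5.11 (SE 0.373, edgeR adjusted p = 0.00129). Neo1, the netrin receptor neogenin, went the other way, with 48.0 ± 1.07 CPM in E6l2-Trp53-KO clones and 165 ± 13.9 CPM in Trp53-KO clones (log2 fold change -1.77, edgeR adjusted p = 0.000996). It was near 0 in DMSO cells of both genotypes, at 0.00971 CPM in E6l2-Trp53-KO and 0.0851 CPM in Trp53-KO cells. Dapk1, a death-associated kinase, had 1.66 CPM in E6l2-Trp53-KO clones and 8.21 CPM in Trp53-KO clones (log2 fold change -2.30, edgeR adjusted p = 0.00264), and Ntn3, a netrin under 1 CPM in all clones, lost its call in 3 of the 4 fits that left out 1 clone.

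In the cytochrome P450 family 4 list no gene was higher and 6 of 8 were lower in E6l2-Trp53-KO clones, the opposite direction to Cyp4v3, with a list median of -2.83. Cyp4f39 had 0.215 ± 0.102 CPM in E6l2-Trp53-KO clones and 9.86 ± 2.53 CPM in Trp53-KO clones (log2 fold change -5.54, SE 0.335, edgeR adjusted p = 0.00109), and at most 1.09 counts over the 3 DMSO libraries of either genotype. Cyp4f18, a leukotriene hydroxylase, had 1.95 ± 0.269 CPM in E6l2-Trp53-KO clones and 15.3 ± 3.71 CPM in Trp53-KO clones (log2 fold change -2.98, edgeR adjusted p = 0.00198). In DMSO the order was reversed, with 6.38 CPM in E6l2-Trp53-KO cells and 2.78 CPM in Trp53-KO cells (log2 fold change 1.20). Cyp4f15 and Cyp4f37 were called on 1 and 1.03 counts in E6l2-Trp53-KO clones and 51 and 30.8 counts in Trp53-KO clones, and the Cyp4f37 call was lost when either E6l2-Trp53-KO clone was left out. The Cyp4f17 call was lost in 3 of the 4 fits that left out 1 clone.

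Of the 6 tested relatives and partners of Pdlim4, 4 were higher in E6l2-Trp53-KO clones, none was lower and 2 were not called. Actn1, alpha-actinin itself, had 20.6 ± 3.81 CPM in E6l2-Trp53-KO clones and 3.71 ± 1.10 CPM in Trp53-KO clones (log2 fold change 2.47, SE 0.293, edgeR adjusted p = 0.00426). It differed in the same direction in untransformed cells, by 1.54 in DMSO (SE 0.129, edgeR adjusted p = 2.86e-11), 1.55 under etoposide and 1.34 at high density. Pdlim2 (1.05), Pdlim5 (0.47) and Actn4 (0.36) were the other 3, of which Pdlim2 had 137 CPM in E6l2-Trp53-KO clones and 66.7 CPM in Trp53-KO clones. With 1 clone left out, Actn4 lost its call in 3 of 4 fits (edgeR adjusted p up to 0.197) and Pdlim5 in 2 of 4.

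In the Ral list of Rgl3, 3 of 10 were higher and 2 lower. Rala, a Ral GTPase, had 46.5 ± 1.86 CPM in E6l2-Trp53-KO clones and 18.04 ± 1.82 CPM in Trp53-KO clones (log2 fold change 1.41, edgeR adjusted p = 0.00109), and Exoc2, a Ral effector of the exocyst, 64.7 ± 2.38 and 31.9 ± 1.96 CPM in the same order (1.04, edgeR adjusted p = 0.0011). Ralgps2, another Ral exchange factor, had 20.3 CPM in E6l2-Trp53-KO clones and 61.1 CPM in Trp53-KO clones (-1.57, edgeR adjusted p = 0.00111). Rgl2, a paralogue of Rgl3, was also higher (0.57). Neither Rala nor Exoc2 was called between these genotypes in DMSO. The chromosome on which a relative lies was not taken into account in any list. In this comparison the median log2 fold change of protein-coding genes ran from -0.30 on chromosome 1 to 0.89 on chromosome 13. The part of such shifts in the differences of relatives was not tested. Among relatives of Fgd1, which was lost in E6l2-Trp53-KO clones, Fgd3 (1.12) and Fgd6 (0.93) were higher there and Fgd2 (-0.49) was lower, a call lost with any 1 clone left out. The Fgd6 call was lost in 2 of these 4 fits. The remaining lists held few calls. Cited2 (0.54) was the 1 call of 6 for Cited4, Prnd (-3.47, under 1 CPM in all clones) the 1 of 3 for Prnp, Acy3 (-3.06, on average also under 1 CPM) the 1 of 6 for Nat8l. Of these, Prnd and Acy3 each lost the call in 3 of the 4 fits that left out 1 clone, and Cited2 in 1. Of the Sox genes listed for Sox4, 3 were tested and none was called by edgeR, although Sox6 had an unadjusted p of 0.0173 (-1.62, adjusted p = 0.0564).

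**Figure D4:**
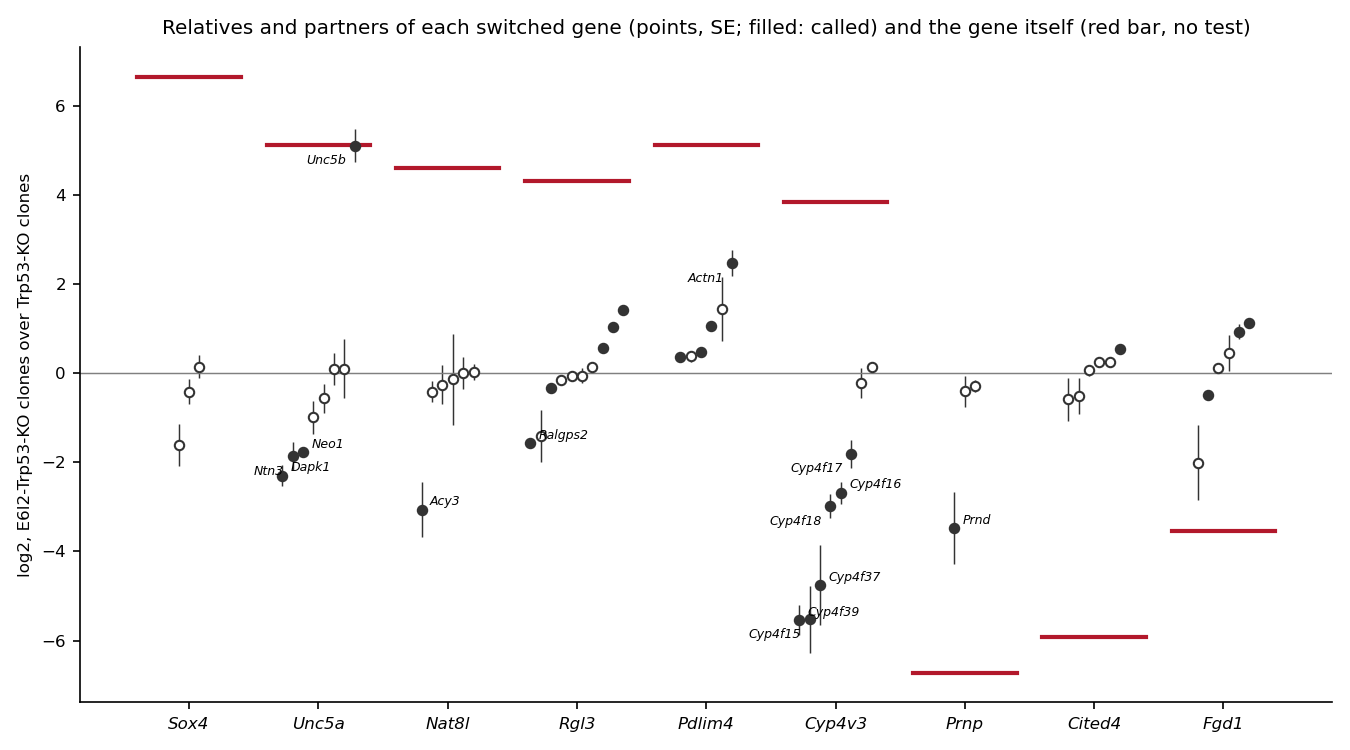
Log2 fold change of E6l2-Trp53-KO clones over Trp53-KO clones for the listed relatives and partners of 9 switched genes (points with SE, filled where called, named beyond 1.5), beside the gene itself (red bar, not tested). Unc5b lies on the side of Unc5a, the called Cyp4f genes lie opposite to Cyp4v3, and the partners of Pdlim4 lie above 0. The red bars are differences of log2 CPM with an offset, the points edgeR log2 fold changes, so their heights are not compared.

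In untransformed cells 42 of the listed genes were tested. Between E6l2-Trp53-KO and Trp53-KO cells 9 were higher and 2 lower in DMSO, where 14.9% of all genes were called, 11 and 5 under etoposide (24.1% of all genes) and 12 and 3 at high density (19.9% of all genes). The 9 in DMSO, named after their values were seen, were Actn1, Adam10, Cited1, Cyp4f18, Fgd2, Ralgps2, Sox5, Sox6 and Sox13. Of these Actn1 had the direction of the clones and Cyp4f18, Fgd2 and Ralgps2 were called in the opposite direction there.

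The switch was also set against the nearest tested genes on the chromosome, in the gene order of GENCODE M21. Some lay far away: Triml2 2111 kilobases from Cyp4v3, Rps6ka3 1458 from Smpx and Rps18-ps5 691 from Sox4. Of the 20 nearest tested genes on either side 10 were called in the clone comparison, against 29.1% of all genes. The median absolute log2 fold change of the 20 was 0.55, against 0.33 for all genes. The called flanks were mixed in direction. Cdkal1, Erv3, Prnd, Tspan17 and Uimc1 moved with the switched gene beside them, and Ctps, Gm42847, Poln, Prkcsh and Fam120c against it. Next to Prnp both neighbours were called in its direction, Prnd on few counts. Erv3, an endogenous retroviral gene, had 1.11 CPM in E6l2-Trp53-KO clones and 35.1 CPM in Trp53-KO clones (log2 fold change -4.94, SE 0.59, edgeR adjusted p = 0.00426), and 0.0135 and 0.0549 CPM in DMSO cells of these genotypes. Prnd, which encodes doppel, a relative of the prion protein, had 0.0129 CPM in E6l2-Trp53-KO clones and 0.279 CPM in Trp53-KO clones (5.05 and 47.1 counts), and its call was lost in 3 of the 4 fits that left out 1 clone. Beside Unc5a, Tspan17 had 20.4 CPM in E6l2-Trp53-KO clones and 5.72 CPM in Trp53-KO clones (1.88, edgeR adjusted p = 0.00112), and Uimc1 (0.76) and the overlapping Hk3 (0.82) were also called. On the same scale the median of the 558 tested protein-coding genes of chromosome 13 was 0.89. Uimc1, Hk3 and Cdkal1 beside Sox4 (0.63) lay below that median and Tspan17 above it. Fam120c, on one side of Fgd1, moved against it (1.36, edgeR adjusted p = 0.00315).

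The flanks of Sox4, Cited4, Nat8l, Rgl3 and Smpx lay between -0.67 and 0.67 on the log2 scale. Among these, Cdkal1 (0.63) was called in the direction of Sox4. Ctps (0.67) was called against Cited4, Gm42847 (-0.67) and Poln (-0.46) against Nat8l, and Prkcsh (-0.34) against Rgl3. The flanks of Pdlim4 and Cyp4v3 were not called, although Slc22a4 beside Pdlim4 had a log2 fold change of 2.07 (SE 0.98) in the direction of Pdlim4. Chromosome 13, which carries Sox4 and Unc5a, stood apart as a whole. The median log2 fold change of its 558 tested protein-coding genes was 0.89, against 0.35 on chromosome 14, -0.30 on chromosome 1, and -0.10 to 0.07 on the others. The differences of Sox4 (6.65) and Unc5a (5.12) are on another scale, log2 CPM with an offset, and these genes were chosen for them. They are therefore not set against that median of edgeR log2 fold changes. The part of the chromosome-wide shift in the Sox4 and Unc5a differences, or in the calls beside them, was not tested.

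**Figure D5:**
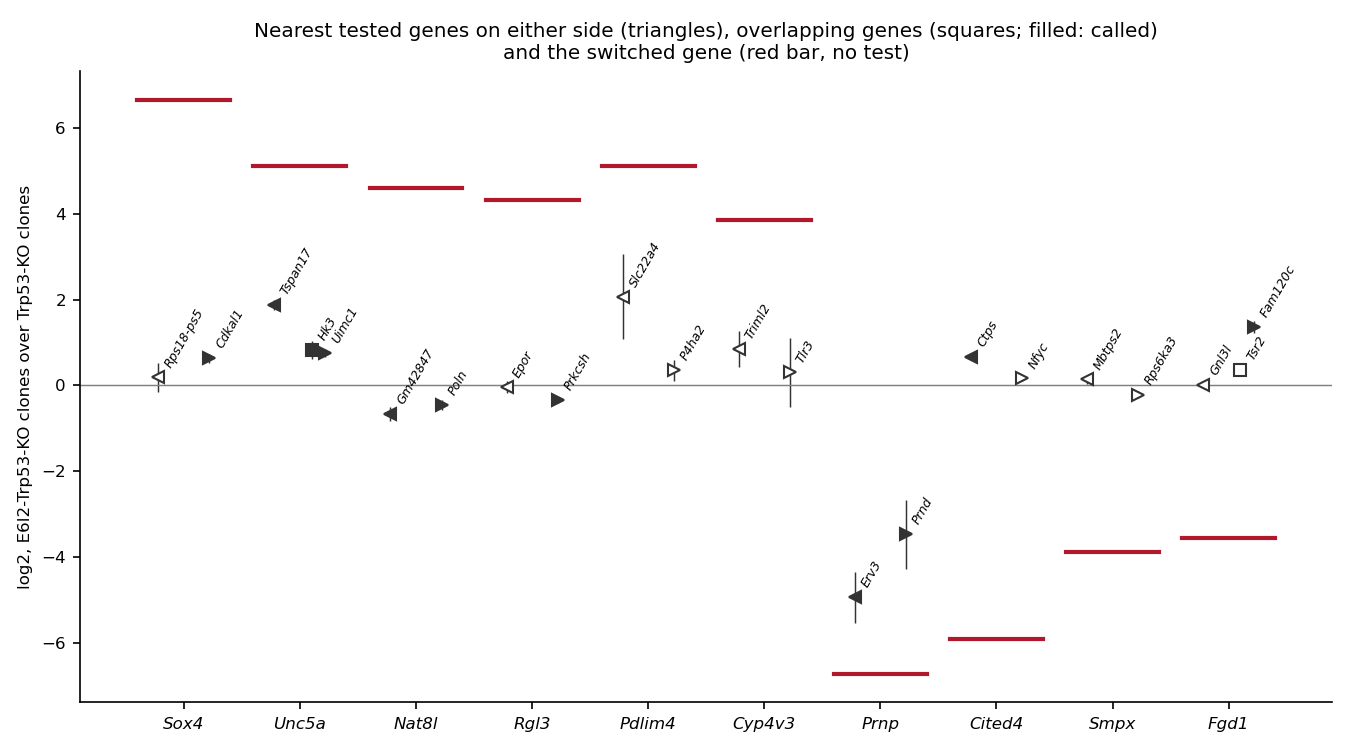
Log2 fold change of E6l2-Trp53-KO clones over Trp53-KO clones for the nearest tested gene at the lower (left triangle) and higher coordinate (right triangle) and for overlapping genes (squares), with SE and filled where called, beside each switched gene (red bar, not tested). Erv3 and Prnd lie on the side of Prnp, Tspan17 and Uimc1 on that of Unc5a, Cdkal1 on that of Sox4 and Slc22a4, not called, on that of Pdlim4. Ctps, Gm42847, Poln, Prkcsh and Fam120c, all called, lie opposite to the switched gene beside them. The red bars are differences of log2 CPM with an offset, the other symbols edgeR log2 fold changes, so their heights are not compared.

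Genes with a like pattern were looked for over the 16 group means of log2(CPM + 0.5), among 10204 genes with at least 5 CPM in a group. The groups share libraries of the same 4 genotypes and are few, and 4 of them are the clones whose on and off levels chose the 10 genes, so a high r between members is fixed by that choice and Pearson's r is a description. Over the 12 untransformed groups alone r was 0.88 for Rgl3 and Pdlim4, and could not be computed for Prnp and Smpx, since Smpx was at 0 throughout. Prnp was most like Smpx (r = 0.997) and Pkp1 (0.995), Cited4 most like Pkp1 (0.999) and Cyp4f39 (0.998), and Smpx most like Prnp (0.997) and Prxl2a (0.992). Rgl3 was most like Slc16a7 (0.980) and Pdlim4 (0.963), and Pdlim4 most like Slc16a7 (0.964) and Rgl3 (0.963). The nearest genes were Gpbp1 (0.995) and Smad5 (0.992) for Sox4, Acp2 (0.988) and Ripor2 (0.987) for Unc5a, and Syk (0.984) and Ggps1 (0.982) for Nat8l. The chromosome on which a like gene lies was not taken into account, although chromosome 13 differed as a whole between the clone genotypes (median 0.89). The part of that shift in these likenesses was not tested. Fgd1 (Rnf125 at 0.927, Gpr160 at 0.924) and Cyp4v3 (Ckb at 0.891, Fgfr1 at 0.889) had the least like partners.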

How the data were processed

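The authors deposited 1 table of estimated counts per gene for 48 libraries, and all of its value columns were matched to a labelled sample. RNA isolation used a PicoPure kit and library preparation an Illumina TruSeq kit, per the labels' protocols. Sequencing was on a NovaSeq instrument and mapping in the SUSHI pipeline, per the series' design text. The sources used here name no aligner, counter, strand setting, genome build or annotation. Of all values 58.1% were within 0.01 of a whole number, and the deposited estimated counts were rounded to whole numbers for testing. Totals per library ran from 22.5 to 114 M, and 99.6% of gene IDs matched GENCODE M21.

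Levels are CPM on TMM-scaled totals (edgeR 4.0.16, R 4.3.3). The 36 untransformed libraries were fitted together with edgeR's quasi-likelihood test by genotype and treatment, after filterByExpr, with Benjamini-Hochberg adjustment over 14059 genes. For the clones the 3 libraries of each clone were summed and 2 clones were set against 2, over 15865 genes. Log2 differences that include the clones of a named gene used log2(CPM + 0.5). A group at 0 was given a floor of 3 counts over its libraries, and intervals (exact, 95%) and floors cover counting error only. The fits were tested on simulated data.

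Other settings tried were RLE size factors, DESeq2 1.42.0, a fit with no low-count filter, the replicate number as a block, only the groups compared, each library or clone left out, the 12 transformed libraries as replicates, the deepest libraries left out, and other bounds for on and off. Genes named are the 10 switched genes, the edited genes, up to 4 called relatives per list by size of change, the 2 genes most alike over groups, and the nearest tested gene on each side. The members and the lists were chosen with earlier results of these data known.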

Additional observations from a re-analysis of the deposited data

Results flagged for a closer look

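In 4 genes the clones of the 2 genotypes moved in opposite directions from DMSO cells of their own genotype, every library of a genotype moving the same way. The genes were chosen for the difference between clones, so it was not tested. On log2(CPM + 0.5), Unc5a differed from DMSO by 1.70 in E6l2-Trp53-KO clones and by -3.30 in Trp53-KO clones. Nat8l differed by 3.97 in E6l2-Trp53-KO clones and by -0.81 in Trp53-KO clones. Pdlim4 differed by 3.60 in E6l2-Trp53-KO clones and by -0.61 in Trp53-KO clones. Fgd1 went the other way, by -2.50 in E6l2-Trp53-KO clones and by 1.07 in Trp53-KO clones.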

How the results depend on the processing

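No result changed direction under the alternatives run. The number of genes past the on and off bounds was 115 with the on bound at 2 CPM and 20 with the off bound at 0.5 CPM, against 37. With only the groups compared in the fit, 2 of the 4 genes were called between E6l2-Trp53-KO and Trp53-KO under etoposide, Sox4 and Fgd1 being lost, and none for etoposide against DMSO in E6l2-Trp53-KO cells. Etoposide against DMSO in wildtype cells gave 2 calls with DESeq2, with RLE size factors and with no filter on low counts, the added gene being Sox4. With each library left out in turn, that comparison gave 0 to 3 calls, and etoposide against DMSO in E6l2-Trp53-KO cells 0 to 1. In the same way Trp53-KO against wildtype gave 1 to 3, with Cyp4v3 counted, and the difference in high density response 0 to 1. Leaving out each clone gave 15 to 22 called relatives, against 25, with 15 when E6l2-Trp53-KO clone 12 was left out. Over all genes the clone comparison called 8572 with 12 libraries as replicates and 2199 to 3571 with 1 clone left out, against 4623. E6l2-Trp53-KO against Trp53-KO under etoposide called 2045 genes without E6l2-Trp53-KO etoposide replicate 3, against 3388, and Trp53-KO against wildtype 635 without wildtype DMSO replicate 2 and 830 without Trp53-KO DMSO replicate 3, against 1269. The all-gene counts for the differences in response moved to 6 to 311 with 1 library left out for etoposide (29 otherwise) and to 19 to 180 for high density (47 otherwise).

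With the replicate number as a block the counts over the switched genes were within 1.5 times the unblocked ones, such as 4 of 7 between E6l2-Trp53-KO and Trp53-KO in DMSO. The one call lost among them was Rgl3 between Trp53-KO and wildtype (-1.90, edgeR adjusted p = 0.0508, 2 calls in all with Cyp4v3 counted). Over all genes the block gave 49 calls for the difference in etoposide response, against 29. Same-numbered libraries had correlated deviations from -0.185 to 0.172, so the numbers were not taken as pairs. Without TMM scaling the median log2 level of genes with at least 5 CPM in a group moved by -0.14 in E6l2-Trp53-KO clones and by 0.10 in their DMSO cells. In Trp53-KO clones and their DMSO cells it moved by -0.06 and 0.08. Counts near 0 limit Cyp4v3 and Rgl3 in Trp53-KO cells and leave Prnp, Cited4 and Smpx untested before transformation. The causes of these changes were not tested.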
